A study of Arabidopsis thaliana with 3 samples.

Results

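Basic helix-loop-helix (bHLH) transcription factors were examined in cold-treated Arabidopsis thaliana plants of the pfd4 mutant and of the wild type Col-0. A locus was counted as a member when the array's deposited annotation named it a bHLH protein or a phytochrome interacting factor before its first semicolon, and not merely as similar to one. The 5 bHLH loci known for anthocyanin, trichome and cold-acclimation control were set aside, of which 1 had matched the text. This left 96 of the 29030 loci measured, read by 128 spots. The rule reads annotation text and no measured value, and it was set up with earlier results of these data known.

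Each of 3 dual-dye arrays took RNA of pfd4, a mutant of a prefoldin chaperone subunit whose allele the labels do not give, together with RNA of Col-0. Both genotypes grew at 22 °C under a cycle of 16 h light and 8 h dark, and the 2-week-old plants then spent 24 h at 4 °C. The labels call the 3 arrays biological replicates, but their descriptions all carry the same replicate number, so the arrays are numbered here by their titles. The pfd4 RNA carried Cy3 on arrays 1 and 2 and Hyper5 on array 3. Plants held at the growth temperature were not analysed here, so a ratio sets mutant against wild type in the cold and does not measure a response to cold. Only ratios were used, so the make-up of the plants could not be checked against marker levels, and fewer cells of a type cannot be told apart from less RNA per cell.

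Values are given as log2 ratios with pfd4 as the numerator. This direction is likely rather than stated, because the labels name the dyes and leave the numerator out. It rests on PFD4 (AT1G08780), the mutated gene, whose ratio was negative on all 3 arrays (-3.08, -2.71 and -2.17). Were Col-0 the numerator, higher and lower would change places throughout. Some results below are also given with the sign of array 3 turned, as a description only. That setting would make PFD4, at -2.17 as deposited, positive on array 3 alone. It thus goes against the direction taken here and is no check on any result.

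bHLH proteins bind DNA as dimers: the basic region touches a short palindromic element, the E-box or its G-box form, and the helix-loop-helix joins the partners. In plants the family is large and its branches have separate tasks, among them light and warmth signalling, jasmonate responses, iron uptake, root hairs, vascular tissue and flowering. Some members lack a working basic region and act by tying up a partner.

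No bHLH transcript passed the threshold between pfd4 and Col-0. Each locus was tested with limma on its 3 ratios against 0, two-sided, with Benjamini-Hochberg adjustment over all loci, and 0 of 96 members reached an adjusted p under 0.05 (background 0.0% of all loci, smallest adjusted p 0.314). The smallest adjusted p among members was 0.887. At an unadjusted p under 0.05, 2 members remained, the flowering factor gene FBH2 and the phytochrome interacting factor gene PIF4, which is 2.08% of members against 4.73% of all loci. In each direction this was 1 member, or 1.04%, against 2.14% of all loci that were higher in pfd4 and 2.58% that were lower.

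The family was centred near 0. Mean log2 ratios over the 3 arrays ran from -0.59 in PIF4 to 1.18 in HBI1, with a median of -0.02 against 0.01 over all loci, and 46 means lay above 0 (47.9%, background 51.3% of all loci) and 50 below (52.1%, background 48.7%). HBI1 was the single member with a mean of at least 1 in size (1.04% of members, against 0.665% of all loci). For 81 members the mean was smaller than the SD over the arrays (84.4%, against 77.7% of all loci). The 95% interval of the mean reached 0.40 to either side at the median member, which is 1.32-fold. For 85 members the whole interval lay between -1 and 1, a share of 88.5% near the 87.3% of all loci. These intervals come from limma's moderated error and are not adjusted for the number of loci.

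The sign of the ratio was often not shared by the arrays. Only 16 members kept 1 sign throughout, 8 above 0 on all 3 arrays (8.33%, background 12.3% of all loci) and 8 below 0 on all 3 (8.33%, background 12.1%). Array 3, which had the exchanged dyes, stood against arrays 1 and 2 at 38 members (39.6%, against 33.8% of all loci). Array 1 stood apart at 23 members (24.0%, against 21.4%) and array 2 at 16 (16.7%, against 16.5%), and 3 members had a ratio of 0 on some array (3.12%, against 4.0%). These last 3 shares lay near those over all loci.

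**Figure D1:**
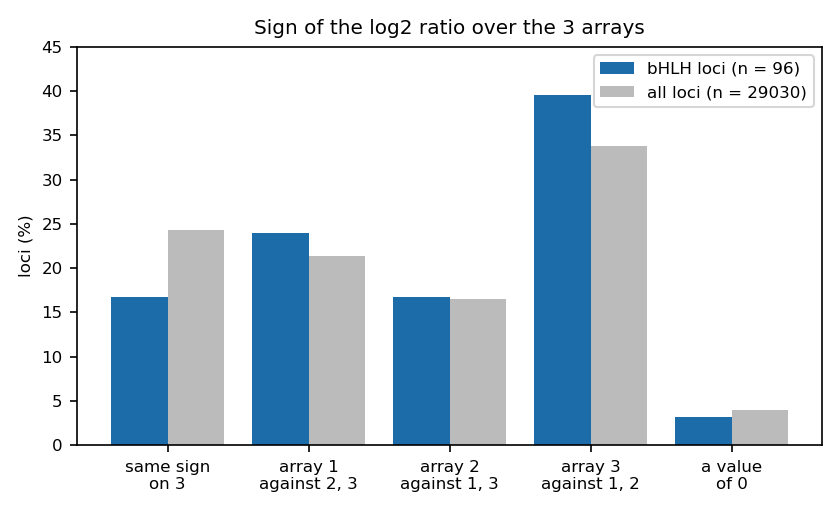
Share of loci (%) by how the sign of the log2 ratio fell over the 3 arrays, for 96 bHLH loci (blue) and all 29030 loci (grey). The tallest pair of bars is that of array 3 against arrays 1 and 2, at 39.6% of bHLH loci and 33.8% of all loci, while 16.7% and 24.3% had the same sign on all 3.

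Array 2 carried the widest ratios. Across members the SD of the ratio came to 0.32, 0.58 and 0.33 on arrays 1, 2 and 3, against 0.36, 0.55 and 0.37 over all loci. A ratio of at least 1 in size was seen at 9 members on array 2 (9.38%, against 7.79% of all loci), at 1 on array 3 (bHLH34, 1.04% against 2.09%) and at 0 on array 1 (0.0% against 1.52%). Over the 96 members, Pearson's r was 0.391 between arrays 1 and 2, -0.297 between arrays 1 and 3 and -0.258 between arrays 2 and 3. Spearman's rho for the same pairs was 0.226, -0.302 and -0.145. Over all loci r was 0.401, -0.269 and -0.035. These correlations are across genes that share the same hybridisations and are a description only. Dye orientation and array 3 cannot be told apart, since a single array had that orientation.

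**Figure D2:**
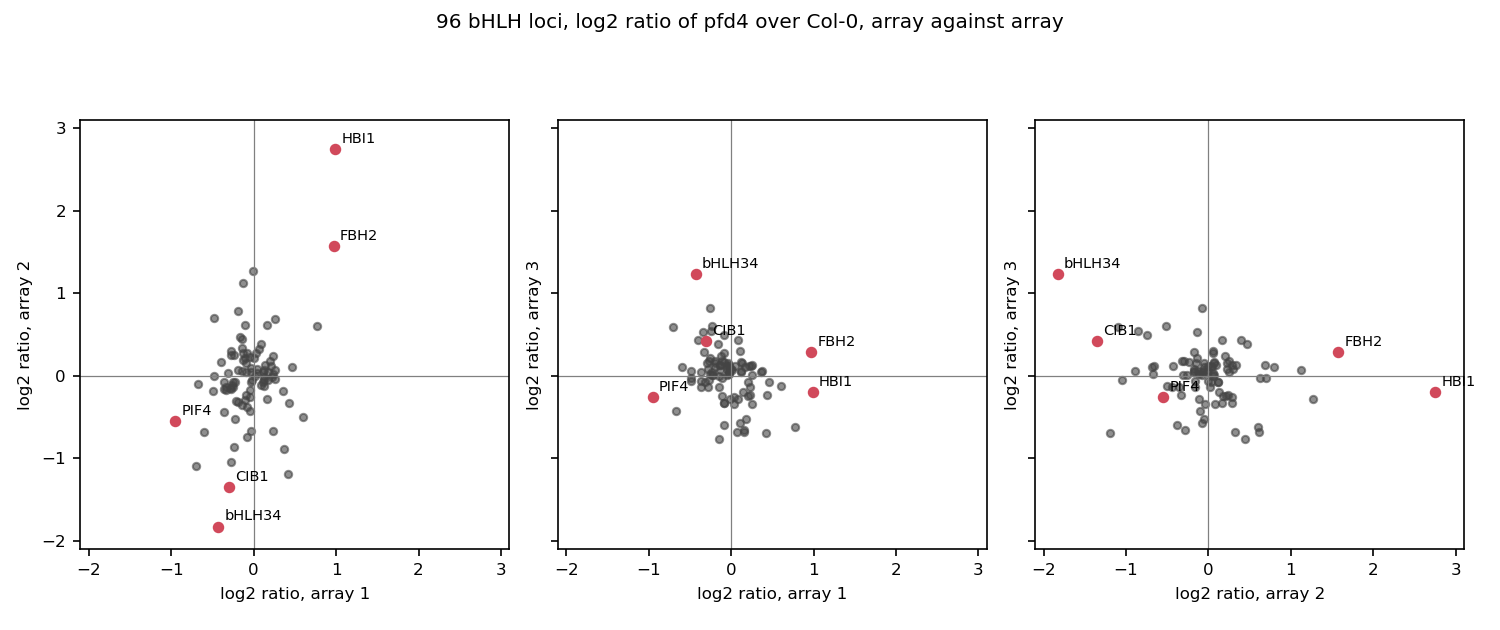
Log2 ratio of pfd4 over Col-0 at 96 bHLH loci, each panel setting one array against another, with 5 loci labelled in red. FBH2 lies above 0 and PIF4 below 0 on all 3 arrays, whereas HBI1, bHLH34 and CIB1 lie on opposite sides of 0 on arrays 2 and 3.

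FBH2 and its relatives were looked at first among the flowering factors. FLOWERING BHLH proteins bind the promoter of CONSTANS, the day-length regulator of flowering, and raise its transcription. FBH2 (AT4G09180) had log2 ratios of 0.97, 1.57 and 0.29 on arrays 1, 2 and 3. All 3 were above 0, with a mean of 0.94 ± 0.64 (SD, n = 3), or 1.92-fold higher in pfd4, and a 95% interval from 0.24 to 1.65 (limma, unadjusted p = 0.019, adjusted p = 0.887). Its unadjusted p in limma was 0.102 without replicate 1 (mean 0.93), 0.0642 without replicate 2 (mean 0.63) and 0.00412 without replicate 3 (mean 1.27). With a prior variance that follows the mean ratio it was 0.204, but that mean ratio is itself the tested value. If the sign of array 3 is turned, the mean is 0.75 (limma, unadjusted p = 0.094). Of the other FBH genes, FBH1 (AT1G35460) had -0.19, 0.79 and 0.11. FBH3 (AT1G51140) had 0.46, 0.11 and -0.08, and FBH4 (AT2G42280) had 0.26, -0.04 and -0.34, so that neither kept a sign. FBH2 was thus the single one of the 4 FBH genes above 0 on every array, and the difference between FBH genes was not tested.

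The cryptochrome-interacting CIB factors promote flowering in blue light. CIB1 (AT4G34530) had -0.30, -1.355 and 0.42, and its pair of spots gave nearly the same values, with -1.38 and -1.33 on array 2. CIB3 (AT3G07340) had -0.01, 1.27 and -0.28, so its mean of 0.33 ± 0.83 (SD, n = 3) came from array 2 and was -0.145 without it. CIB5 (AT1G26260) and the FBH relative AKS2 (AT1G05805) shared a pattern of positive ratios on arrays 1 and 2 and -0.68 on array 3, while CIB2 (AT5G48560) stayed between -0.145 and 0.055. Of the 10 members with flowering or FBH-related roles, 6 means were above 0 and 4 below, the median was 0.055, and 1 had an unadjusted p under 0.05 and 0 an adjusted p under 0.05.

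Phytochrome interacting factors (PIFs) build up in darkness and shade, promote elongation, and are broken down once phytochrome is activated by light. PIF4, which also drives growth in warmth, was the lower member with the smallest p. PIF4 (AT2G43010) had log2 ratios of -0.95, -0.55 and -0.26. All 3 were below 0, with a mean of -0.59 ± 0.35 (SD, n = 3), and a 95% interval from -1.05 to -0.13 (limma, unadjusted p = 0.0225, adjusted p = 0.887). Its unadjusted p in limma was 0.102 without replicate 1 (mean -0.405), 0.0727 without replicate 2 (mean -0.605) and 0.0145 without replicate 3 (mean -0.75). If the sign of array 3 is turned, the mean is -0.41 (limma, unadjusted p = 0.16).

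The other members of that branch did not keep a sign over the arrays. PIF3 (AT1G09530) had 0.11, -0.08 and -0.575. Its pair of spots gave -0.19, -0.32 and -0.25 for the first and 0.41, 0.16 and -0.90 for the second. The spots agreed on array 3 in sign and parted on arrays 1 and 2. PIF1 (AT2G20180), a repressor of seed germination, had -0.145, 0.44 and -0.765. PIF6 (AT3G62090) had 0.03, 0.28 and -0.26, and PIL1 (AT2G46970), a gene switched on by shade, had a mean of -0.04 ± 0.13 (SD, n = 3). The median over these 5 members was -0.16.

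The annotation text names further PIF relatives in other words, so they are no members. PIF5 (AT3G59060), the closest relative of PIF4, had -0.42, 0.785 and 0.18, and HFR1 (AT1G02340), which binds PIFs and holds them off DNA, had -0.39, 0.69 and 0.51. PIF4 and PIF5 thus had the same sign on array 1 and opposite signs on arrays 2 and 3. Among 7 growth genes known to be bound by PIFs, 0 had an unadjusted p under 0.05 in limma and 0 an adjusted one. The homeobox gene ATHB2 had 0.30 ± 0.12 (SD, n = 3) and was above 0 on all 3 arrays, and the sulfotransferase gene ST2A had -0.485 ± 0.42 and was below 0 on all 3.

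**Figure D3:**
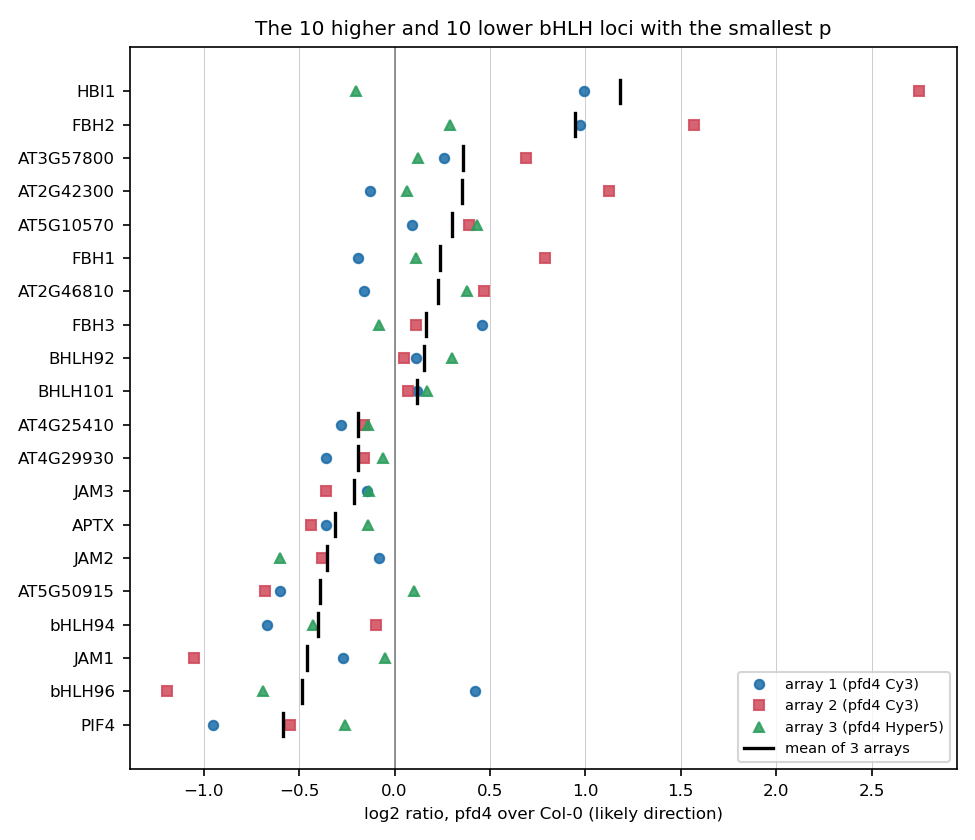
Log2 ratio of pfd4 over Col-0 on array 1 (blue circles), array 2 (red squares) and array 3 (green triangles), with the mean as a black bar, for the 10 higher and 10 lower bHLH loci with the smallest p. FBH2 and PIF4 keep their sign on all 3 arrays, and the largest mean, that of HBI1, comes from a ratio of 2.75 on array 2.

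Jasmonate-related bHLH proteins form an opposed pair of sets: MYC2, MYC3 and MYC4 switch on jasmonate genes, and JAM1, JAM2 and JAM3 compete for the same elements as repressors. All 3 JAM genes were below 0 on all 3 arrays, as were 12.1% of all loci. JAM1 (AT2G46510) had -0.27, -1.05 and -0.05, JAM2 (AT1G01260) had -0.08, -0.38 and -0.60, and JAM3 (AT4G16430) had -0.145, -0.36 and -0.135. Their means were -0.46 ± 0.53, -0.35 ± 0.26 and -0.21 ± 0.13 (SD, n = 3), and none passed (limma, unadjusted p = 0.108, 0.0718 and 0.155, adjusted p = 0.887 for each). The JAM1 mean was -0.16 without replicate 2, and the mean of JAM2 was 0.0467 once array 3 was turned in sign. JAM3 was read by 2 spots, both with negative means, -0.30 and -0.13.

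The activator genes had no common sign over the arrays. MYC3 (AT5G46760) had 0.16, -0.28 and -0.66, and MYC4 (AT4G17880) had -0.215, -0.31 and 0.005. The pair of spots for MYC4 had means of opposite sign, -0.36 and 0.01. MYC2 (AT1G32640), which the annotation text does not call a bHLH protein, had 0.21, -1.22 and -1.08, the widest of the 3 activators, with a mean of -0.70 ± 0.79 (SD, n = 3, limma, unadjusted p = 0.0848). NIG1 (AT5G46830), a relative named for its induction by salt, had 0.07 ± 0.27. Of the 6 named members of the branch, 5 means were below 0 and 1 above, the median was -0.24 against 0.01 over all loci, and 0 had an unadjusted p under 0.05.

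The iron branch is a cascade. The clade IVc factors bHLH34, bHLH104, bHLH115 and ILR3 act with bHLH121 to switch on the clade Ib genes and POPEYE (PYE), the Ib factors pair with FIT to turn on iron uptake in roots, and bHLH11 counteracts it. Here 11 members were measured, with means from -0.34 to 0.165, a median of 0.02 and no unadjusted p under 0.05 (the smallest was 0.358 in limma). FIT (AT2G28160) had -0.27, 0.255 and 0.18, and its pair of spots lay apart by 1.04 on array 1, at 0.25 and -0.79.

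Of the 4 clade Ib genes, 3 had SDs under the members' median of 0.26. BHLH101 (AT5G04150) had 0.12, 0.07 and 0.17 and bHLH39 (AT3G56980) had 0.17, 0.04 and 0.11, both above 0 on all 3 arrays with SDs of 0.05 and 0.07. bHLH38 (AT3G56970), the gene next to bHLH39 on chromosome 3, had a mean of -0.05 ± 0.20 (SD, n = 3). BHLH100 (AT2G41240) had 0.18, -0.05 and -0.53 with an SD of 0.36 and its lowest ratio on array 3.

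The clade IVc genes followed the arrays. bHLH34 (AT3G23210) had -0.43, -1.83 and 1.23, the largest SD of all 96 members (1.53). bHLH104 (AT4G14410) had -0.34, -0.135 and 0.525, and bHLH115 (AT1G51070) had -0.255, -0.075 and 0.825. ILR3 (AT5G54680), the fourth of the clade and no member by its annotation text, had -0.195, -0.765 and 0.295. All 4 were thus below 0 on arrays 1 and 2 and above 0 on array 3, a pattern picked out after the values were seen and one that 38 of the 96 members share in one direction or the other. Of the pair of spots for bHLH115, the first had -0.72, -0.69 and 1.08 and the second 0.21, 0.54 and 0.57, so that only the first showed it. PYE (AT3G47640) had 0.37, -0.89 and 0.06, bHLH11 (AT4G36060) had -0.05, -0.425 and 0.115, and bHLH121 (AT3G19860) had -0.40, 0.165 and 0.435.

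Iron genes downstream of these factors gave 1 higher and 1 lower of 15 at an unadjusted p under 0.05 in limma (2.14% and 2.58% of all loci), and 0 by adjusted p. The ferric reductase gene FRO2 had -0.23, -1.69 and -0.79, and F6'H1, which makes coumarins that mobilise iron, had 0.63, 1.20 and 0.16. FRO2 and the transporter gene IRT1 are both known targets of FIT, and IRT1 had 0.07, 0.18 and -0.13.

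**Figure D4:**
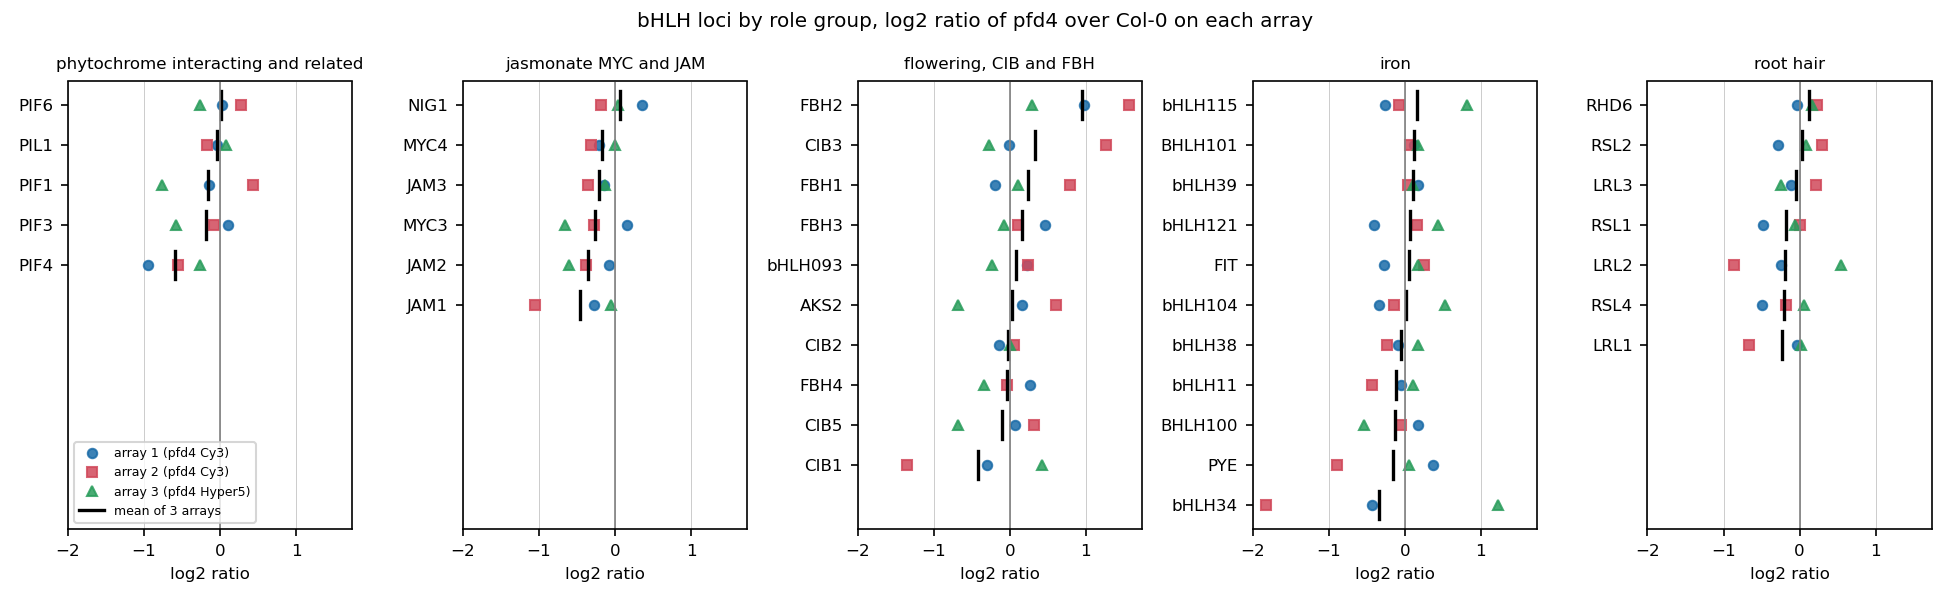
Log2 ratio of pfd4 over Col-0 on array 1 (blue circles), array 2 (red squares) and array 3 (green triangles), with the mean as a black bar, for bHLH loci with a known name in 5 role groups. The 3 JAM genes and PIF4 lie below 0 on all arrays, and bHLH34 spans from -1.83 on array 2 to 1.23 on array 3.

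Brassinosteroid- and elongation-related members were few. HBI1 (AT2G18300), which promotes cell elongation and dampens immune responses, had 0.99, 2.75 and -0.20. Its mean of 1.18 ± 1.48 (SD, n = 3), or 2.27-fold, was smaller than the SD (limma, unadjusted p = 0.0981). It was 0.395 without replicate 2 (limma, unadjusted p = 0.328) and 1.87 without replicate 3 (unadjusted p = 0.0166). The array 2 value was the highest of any member on any array. CES (AT1G25330), a brassinosteroid-regulated activator of hormone synthesis, had -0.12 ± 0.17. Relatives outside the annotation text included BEE2 (AT4G36540) at 0.235, 0.645 and 0.33 and BIM3 (AT5G38860) at 0.13, 0.55 and 0.50. Both were above 0 on all 3 arrays (limma, unadjusted p = 0.0389 and 0.0452, adjusted p = 0.887 for both), and they were the 2 of 39 named family loci outside the text rule with an unadjusted p under 0.05, a share of 5.13% that lies near the 4.73% of all loci. BIM1 (AT5G08130), related to BIM3, lay on the other side of 0, with -0.11, -0.46 and -0.49 (limma, unadjusted p = 0.0582). Of 9 genes of brassinosteroid synthesis and signalling, 0 reached an unadjusted p under 0.05 (4.73% of all loci). None had the same sign on all 3 arrays, against 24.3% of all loci.

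Helix-loop-helix proteins of the PRE type lack a DNA-binding basic region. The 3 named members of this type stayed close to 0: PRE3 (AT1G74500) had 0.11 ± 0.24, BNQ2 (AT5G15160) had -0.08 ± 0.24 and BNQ3 (AT3G47710) had 0.02 ± 0.04 (SD, n = 3). Of 12 further loci of the atypical kind outside the text rule, 0 had an unadjusted p under 0.05 in limma. AIF1 (AT3G05800) had 1.38, 0.21 and 0.07 there, above 0 on every array and mostly so on array 1, and PAR1 (AT2G42870), which restrains shade responses, had -0.58, 0.10 and -0.95.

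Root hair factors were measured at 7 named members. RHD6 and RSL1 start hairs, RSL2 and RSL4 drive their growth, and the LRL genes act beside them. Means ran from -0.23 in LRL1 to 0.12 in RHD6, with a median of -0.18 and 0 of 7 at an unadjusted p under 0.05 in limma. RSL4 (AT1G27740), the growth regulator, had -0.49, -0.18 and 0.06, and LRL2 (AT4G30980) had -0.24, -0.86 and 0.54. No member of the group had the same sign on all 3 arrays, against 24.3% of all loci. Of 7 root hair effector genes, which also mark root hair cells, 0 had an unadjusted p under 0.05, their means ran from -0.62 to 0.11, and the cellulose synthase-like gene CSLD3 had -1.03, -1.13 and 0.29.

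In vascular tissue TMO5 pairs with LHW to drive cell divisions. TMO5 (AT3G25710) had 0.77, 0.60 and -0.62 and T5L1 (AT1G68810), its relative, had 0.43, -0.33 and -0.23. If the sign of array 3 is turned, which also makes PFD4 positive there, TMO5 is the member with the smallest p (mean 0.66, limma, unadjusted p = 0.00222, adjusted p = 0.215). Under that setting 10 of 96 members had an unadjusted p under 0.05, which is 10.4% against 13.4% of all loci.

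The role lists held 54 members by locus, but 46 were given a role, because a locus with no name in the tables got none. The remaining 50 members thus include some listed loci, and most of the 50 carry no name in the tables. Their means ran from -0.49 to 0.36 with a median of 0.01, 26 above 0 and 24 below, and 0 had an unadjusted p under 0.05 in limma. bHLH94 (AT1G22490) had -0.67, -0.10 and -0.43 and a mean of -0.40 ± 0.29 (SD, n = 3, limma, unadjusted p = 0.0565). Its relative bHLH96 (AT1G72210) had 0.42, -1.19 and -0.69, so the 2 genes had the same sign on arrays 2 and 3 and opposite signs on array 1. AT5G10570 had 0.09, 0.39 and 0.43, and AT3G57800 had 0.26, 0.69 and 0.125, both above 0 on all 3 arrays (limma, unadjusted p = 0.0796 and 0.0803). AT3G57800 is above 0 throughout as a mean of 2 spots, 1 of which was below 0 on array 3 (-0.19) and the other on array 1 (-0.03). AT4G28790 and AT1G62975 were also above 0 throughout as means of 2 spots, with means of 0.11 and 0.06. For AT4G28790, 1 spot was below 0 on array 2 (-0.10) and the other on array 3 (-0.07). For AT1G62975, 1 spot was below 0 on array 3 (-0.06) and the other on arrays 1 and 2 (-0.37 and -0.01).

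AT5G01310, which the array's annotation calls a bHLH protein, is named APTX (aprataxin-like) in the RefSeq gene table. It was kept as a member by the text rule, with -0.36, -0.44 and -0.14. AT4G25410 had -0.28, -0.16 and -0.14 and AT4G29930 had -0.36, -0.16 and -0.06, the remaining loci below 0 on every array. BHLH92 (AT5G43650) had 0.11, 0.05 and 0.30. AT2G42300 had -0.13, 1.125 and 0.065, and its pair of spots differed by 1.75 on array 2, at 0.25 and 2.00. AT1G03040 had -0.70, -1.10 and 0.59 and AT5G50915 had -0.60, -0.68 and 0.10, both below 0 on arrays 1 and 2 and above 0 on array 3. AT2G46810 had -0.16, 0.47 and 0.38.

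Neighbouring members and repeated spots are described next. On the chromosomes, 6 pairs of members lie next to each other. AT4G25400, with -0.09, 0.05 and 0.28, and its neighbour AT4G25410 had the same sign on array 1 and opposite signs on arrays 2 and 3. Their means of 0.08 and -0.19 were the furthest apart of the 6 pairs. AT2G22750 and AT2G22760 had means of 0.05 and 0.04, and AT5G51780 and AT5G51790 had -0.10 and -0.07. AT2G31210, AT2G31215 and AT2G31220, which lie in a row, had -0.02, -0.10 and -0.13. For bHLH38 and bHLH39 the means were -0.05 and 0.11. Related neighbours can share sequence, so a spot may also take up the neighbour's transcript. Of the 96 members, 29 were read by several spots. Within these loci the spots lay apart by 0.25 at the median over loci and arrays. The means of the spots had opposite signs at 15 of the 29 loci, and 3 loci had spots apart by over 1 on some array. Some of these means lay close to 0, as at bHLH104 with -0.0033 and 0.0367, where opposite signs mean little. The shares over all loci with several spots were not computed.

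Floral organ genes, included because flowering-stage tissue would add its own bHLH transcripts, had 1 of 7 lower at an unadjusted p under 0.05 in limma (2.58% of all loci), AP1 with -0.64, -0.58 and -0.09. The 7 means ran from -0.44 to -0.03, and 3 genes were below 0 on all 3 arrays (12.1% of all loci). Of 13 stomatal lineage and guard cell genes, 2 were higher and 0 lower at an unadjusted p under 0.05 (2.14% and 2.58% of all loci), the guard cell factor MYB60 at 0.73 ± 0.07 and the secreted peptide EPFL9 at 0.41 ± 0.22 (SD, n = 3), with 0 by adjusted p. In the list 3 genes were above 0 on all 3 arrays and 4 below (12.3% and 12.1% of all loci). The 4 below were MYB88, ER, YDA and FLP, with means of -0.40, -0.42, -0.25 and -0.10. The median of the list was -0.10. The stomatal bHLH genes SPCH, MUTE and FAMA, no members by their annotation text, had means of -0.24, -0.07 and -0.08. The part of these tissues in the bHLH values was not tested.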

How the data were processed

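The deposited values are log2 ratios of the 2 genotypes, with 1 value for each spot on each array; the authors normalized them, and the submitters' processing notes name limma. No source used here gives its version, the background correction, the normalization settings or the array's genome build. The log base was taken as 2, as limma writes it, and values carry 2 decimals. Both deposited tables held the same values over 45220 spots. No intensities were used, so no filter on dim spots was run, and the number of arrays limits the precision.

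The 38613 spots with a locus code were averaged per locus, which gave 29030 loci, and limma (version 3.58.1, R 4.3.3; lmFit, eBayes) tested the mean of 3 ratios against 0 with 2 residual and 2.68 prior degrees of freedom. Summaries used pandas 2.3.3 and numpy 2.4.6. Errors are SDs over arrays. Named were the 10 higher and 10 lower members with the smallest p, the 4 with the largest SD (HBI1, bHLH34, CIB1 and AT1G03040), up to 4 members a role group and up to 2 genes a pathway list, those with the smallest p. Relatives beyond these were picked with their values known. The members and lists were chosen with earlier results of these data known. Of 61 pathway genes, 58 were used, because the tables carry their symbols. Symbols and neighbours were read from RefSeq genes (assembly TAIR10.1), which held all 96 members. No sequences are printed, as none were used here.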

Additional observations from a re-analysis of the deposited data

How the results depend on the processing

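Under 13 alternatives no bHLH locus reached an adjusted p under 0.05 in limma. The smallest adjusted p among members was 0.215, with the sign of replicate 3 turned, and the next was 0.334, without replicate 3. Leaving out 1 replicate gave 0 to 3 higher and 1 to 4 lower loci at an unadjusted p under 0.05, and 33 to 54 loci with the same sign on both arrays left, where fewer arrays must share a sign. Without replicates 1, 2 and 3 in turn, 1.04%, 1.04% and 7.29% of members had an unadjusted p under 0.05, against 3.8%, 1.64% and 12.8% of all loci. The same sign was held by 41.7%, 34.4% and 56.2% of members, against 46.5%, 41.4% and 58.9% of all loci. With the sign of replicate 3 turned, which makes PFD4 positive there, 3 were higher and 7 lower (10.4% of members, against 13.4% of all loci). The same sign was then held by 38 (39.6%, against 33.8%). A dye term gave 2 lower and array weights gave 3 lower. At an unadjusted p under 0.05 in either direction, members came to 3.12% and 4.17%, against 4.57% and 6.14% of all loci. A prior variance following the mean ratio, itself the tested value, gave 0 higher, with FBH2 at an unadjusted p of 0.204 in limma. In either direction this prior gave 1.04% of members, against 2.01% of all loci. Centring, a common spread, the first or the median spot, 1-spot loci and a robust prior moved none of the counts by p or shared sign by over 1.5 times. Of all 96 members, 61 turned the sign of their mean under at least 1 alternative, the turned sign of replicate 3 included. The share over all loci was not computed for this count, so the count cannot be read as a trait of the family. Without replicate 1 the sign turned at 11 members (11.5%, against 16.6% of all loci) and without replicate 2 at 28 (29.2%, against 20.2%). Without replicate 3 it turned at 19 (19.8%, against 15.6%). Taking the first spot, which can change only loci with several spots, turned 10 members (10.4%, against 3.49% of all loci). With the sign of replicate 3 turned, the mean changed sign at 32 members (33.3%, against 30.6%). Of the 40 members named by p, SD or role group, 22 kept their direction under every alternative run for them. Those alternatives include the turned sign of replicate 3. Leaving out 1 replicate reversed 13: the means ran from -0.0325 to 0.595 for AT2G42300, -0.04 to 0.45 for FBH1, -1.13 to 0.40 for bHLH34, -0.8275 to 0.06 for CIB1, -0.01 to 0.685 for TMO5, -0.2375 to 0.0325 for bHLH11 and -0.005 to 0.235 for PRE3. They ran from -0.205 to 0.035 for BNQ2, -0.1075 to 0.02 for PIL1, -0.28 to 0.10 for T5L1, -0.3275 to 0.015 for PIF3, -0.29 to 0.065 for BHLH100 and -0.455 to 0.1475 for PIF1. With the sign of replicate 3 turned it reversed for AT2G46810 (-0.0233), BHLH92 (-0.0467), JAM2 (0.0467), MYC3 (0.18), PIF3 (0.2017), BHLH100 (0.22), PIF1 (0.3533), T5L1 (0.11) and BNQ3 (-0.0033). It reversed with a dye term for bHLH34 (0.05), with array weights for T5L1 (0.0343) and with the first spot for PIL1 (0.0733). The cause was not tested. Each ratio already pairs the genotypes on 1 array, so the tests on the ratios are paired by array and no further pairing was made. The samples are 3 arrays of 1 group, so 1 array with exchanged dyes limits what a dye term can show.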
